A study of Mus musculus with 14 samples.

Results

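The sirtuins and the NAD glycohydrolases are enzymes that consume NAD and release nicotinamide (NAM), which in turn inhibits them. Their 10 genes, namely the 7 sirtuins *Sirt1* to *Sirt7* and the 3 glycohydrolases *Cd38*, *Bst1* and *Sarm1*, were taken by gene symbol from the 56414 genes listed for 14 mouse mammary tumors. The rule reads gene symbols only, and each symbol matched 1 gene.

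Bulk polyadenylated RNA was sequenced from tumors of C57Bl/6 mice, with 1 library per tumor. M/D-driven tumors arose in females that received a 50 mg pellet of medroxyprogesterone acetate (MPA, a synthetic progestin released over 90 days) at 6 to 9 weeks of age, followed by 6 gavages of 200 µl of 7,12-dimethylbenz[a]anthracene (DMBA, a carcinogen) at 5 mg/ml. AT3 tumors grew from 1.0e+06 cells of the AT3 mouse mammary carcinoma line injected under the skin, so that this model rests on a single line and carries neither the hormone nor the carcinogen. In both models, mice entered the experiment at a tumor surface of 0.25 cm2 and were left untreated (4 M/D-driven and 3 AT3 tumors) or received 0.5% NAM in the drinking water for 10 days (4 and 3 tumors). By the labels, NAM-treated M/D-driven tumor 1 belongs to experiment 2, the rest of that model (7 tumors) to experiment 1 and all AT3 tumors to experiment 3. Replicates are numbered tumors. The methods of the study count mice, whereas the labels do not tie each tumor to a mouse of its own, and p values here measure the spread between these tumors.

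Sirtuins remove acetyl or longer acyl groups from lysines in a reaction that splits NAD. *Sirt1*, *Sirt6* and *Sirt7* act mainly in the nucleus on histones and transcription factors, *Sirt2* mainly in the cytoplasm, and *Sirt3*, *Sirt4* and *Sirt5* in mitochondria on metabolic enzymes. CD38 and its paralog BST1 (CD157) are surface enzymes of leukocytes and stroma that turn NAD into ADP-ribose and the calcium messenger cyclic ADP-ribose, whereas SARM1 is an intracellular glycohydrolase known for executing axon degeneration. These genes are read here as RNA only, and in a bulk tumor fewer cells of a type and less RNA per cell cannot be told apart.

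The libraries held 40936868 to 84178009 reads. NAM-treated M/D-driven tumor 1 stood apart from the other tumors of its model before any member was compared. It was the highest of 8 for 6 of 7 B cell markers and 6 of 7 precursor B cell markers, and the lowest for 9 of 10 epithelial markers. The precursor B cell gene *Rag2* was at 9006 in this tumor and at 0 in the 7 others. *Rag1*, the remaining precursor B cell marker, was instead the lowest of 8, at 475 against 623 to 1337. *Epcam* was at 932 against 16167 to 62247, and no epithelial marker was at 0. The summed B cell markers amounted to 195989 in this tumor and to at most 2459.7 in the others, and the summed epithelial markers to 8390 against 320422 to 1038960 (AT3 tumors, 73154 to 100861). This tumor is also the only one of experiment 2, so that composition and experiment cannot be told apart, and the NAM effects of the members in this model are given with and without it.

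The 10 genes lie on 5 chromosomes of mm10. *Bst1* (chromosome 5, 43818893 to 43843468) and *Cd38* (chromosome 5, 43868809 to 43912374) are paralogs on the plus strand, 25340 bases apart with 1 listed gene between them. *Sirt4* (115478010 to 115484484, minus strand) is on the same chromosome. *Sirt1* (chromosome 10, 63319005 to 63339039) and *Sirt6* (chromosome 10, 81621786 to 81627608) share a chromosome, as do *Sirt2* and *Sirt3* (chromosome 7) and *Sirt7* and *Sarm1* (chromosome 11), while *Sirt5* is on chromosome 13. Gene models overlap on the opposite strand for *Sirt2* (*Nfkbib*, 761 bases), *Sirt3* (*Ric8a*, 709 bases, and *Psmd13*, 342 bases), *Bst1* (*Fbxl5*, 2746 bases) and *Cd38* (*Gm16015*, 671 bases), and on the same strand for *Sirt7* (*Mafg*, 124 bases, and *Mir6936*, 54 bases) and *Cd38* (*Gm16014*, 1275 bases). Whether reads were counted by strand is not given in the sources used here, and a part of the reads of these 5 genes may belong to their partners.

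The start sites of these genes differ in a way that the choice of members did not use. RefSeq promoter windows on GRCm38.p6, from 250 bases before to 50 bases after the start, matched 9 of 10 members (*Bst1* was not matched). The number of CG dinucleotides in the window was 15 to 47 in the 7 sirtuins, 15 in *Sarm1* and 1 in *Cd38*, against a median of 7 over 32851 windows. The 100 bases before the start are shown for *Sirt1* and *Sirt4*, the sirtuins that passed the thresholds for NAM below, and for *Cd38*, the member with the fewest CG, with every CG in capitals (*Sirt1*, chr10:63339036-63339135, minus strand; *Sirt4*, chr5:115484298-115484397, minus strand; *Cd38*, chr5:43868709-43868808, plus strand).
Sirt1: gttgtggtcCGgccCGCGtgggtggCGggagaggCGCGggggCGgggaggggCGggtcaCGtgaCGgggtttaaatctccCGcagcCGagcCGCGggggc
Sirt4: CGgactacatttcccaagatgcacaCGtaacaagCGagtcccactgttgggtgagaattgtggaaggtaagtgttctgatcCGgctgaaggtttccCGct
Cd38: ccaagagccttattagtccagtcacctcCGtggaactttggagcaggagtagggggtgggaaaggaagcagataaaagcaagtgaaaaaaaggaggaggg
These stretches held 14 CG for *Sirt1*, 5 for *Sirt4* and 1 for *Cd38*. Of 4 motifs searched on both strands of the whole window, GGGCGG (the GC box) was found in *Sirt1*, *Sirt2*, *Sirt5*, *Sirt7* and *Sarm1* and in 35.7% of all windows. CACGTG (the E-box) was found in *Sirt1* (7.15% of all windows), CCGGAAG (an ETS core) in *Sirt3*, *Sirt6* and *Sirt7* (8.86%), and TATAAA in none of the 9 (13.6%). A match is a description of letters and not a bound site.

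**Figure D1:**
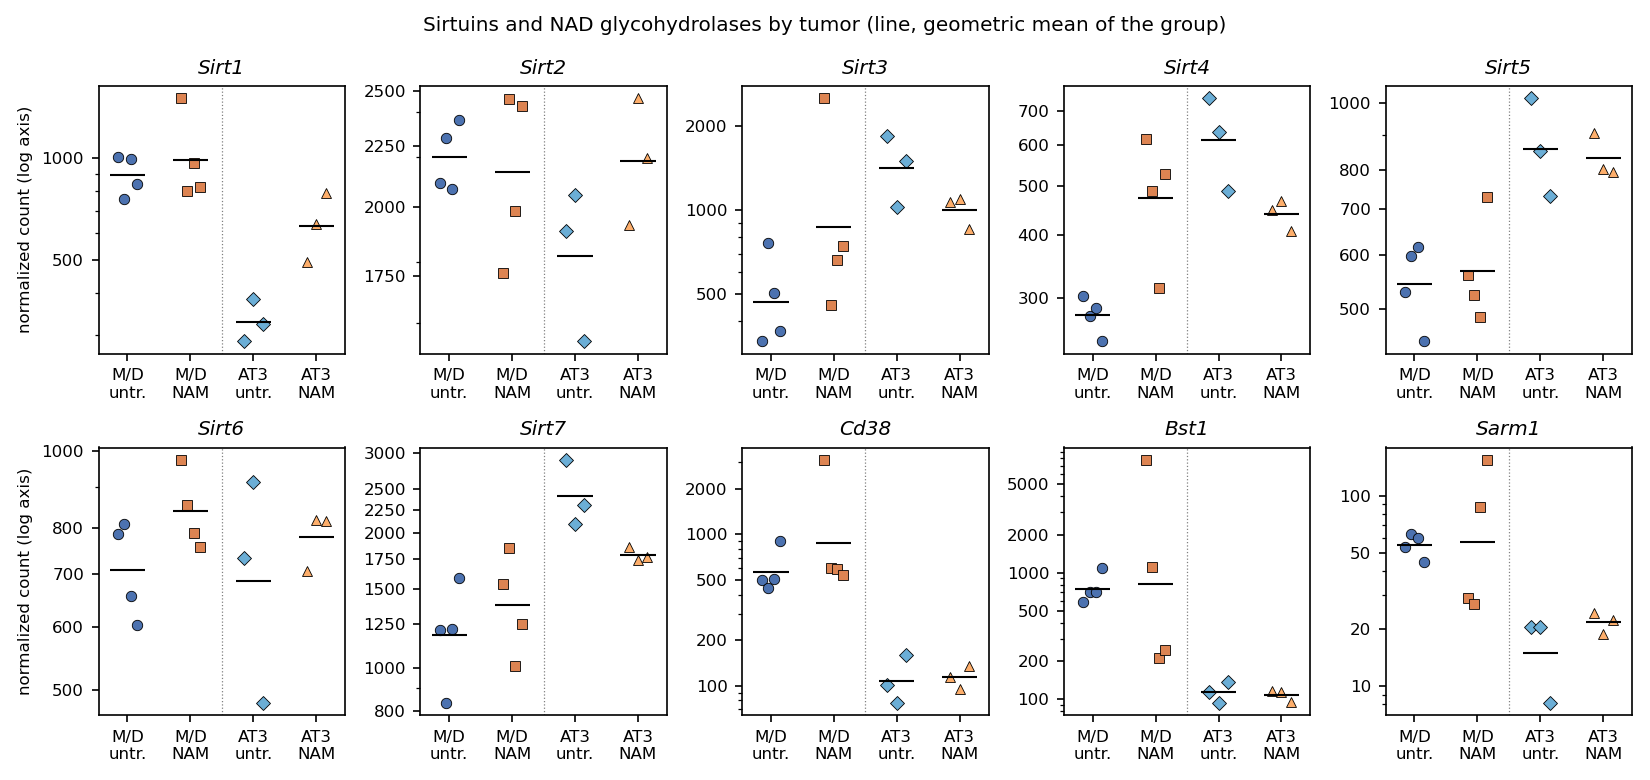
Normalized count (log axis) of each member in each tumor, with 1 point per tumor and a line at the geometric mean of the group. NAM-treated M/D-driven tumor 1 lies alone at the top for *Cd38* (3118), *Bst1* (7818) and *Sirt3* (2515), and the 3 NAM-treated AT3 tumors lie above the 3 untreated ones for *Sirt1*.

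The order of the members was first set out in the untreated tumors, per kilobase of the longest transcript and on 1 scale across the 14 tumors (TMM factors). Transcript length stands in for the length of the counted regions, which is not given in the sources used here. *Sirt2* had the highest level per kilobase in both models, at 1005 ± 61.9 (SD, n = 4) in M/D-driven and 985 ± 132.9 (SD, n = 3) in AT3 tumors. In M/D-driven tumors it was followed by *Sirt6* (365 ± 55.04) and *Sirt7* (357 ± 85.03), from which it stood clear in every tumor. The levels from *Sirt6* down to *Sirt3* (149 ± 59.99) formed a ladder in which each neighbor overlapped with the next. *Sarm1* was last at 11.04 ± 1.71 and overlapped with no other member. In AT3 tumors *Sirt7* (845 ± 132.9) overlapped with *Sirt2* and stood clear of *Sirt3* (516 ± 139), *Sirt6*, *Sirt5* and *Sirt4* (395 ± 74.5), which overlapped from neighbor to neighbor. A gap then separated *Sirt1* (85.1 ± 13.2), and a further one *Bst1* (45.7 ± 8.84) and *Cd38* (39.3 ± 15.3), before *Sarm1* (3.79 ± 1.61, on 10 to 20 reads per tumor).

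The make-up of the sirtuin family was also read within each tumor, as the share of each sirtuin in the summed level per kilobase, into which no scaling between tumors enters. The 3 mitochondrial sirtuins took 17.2 to 24.8% of the family in untreated M/D-driven tumors and 32.1 to 38.6% in untreated AT3 tumors, without overlap. With NAM these shares were 21.1 to 38.7% and 27.3 to 32.7%. The highest M/D value was that of NAM-treated tumor 1, in which *Sirt3* alone took 22.3% (4.79 to 8.42% in the 3 other NAM-treated tumors). *Sirt1* took 6.67 to 9.10% in untreated M/D-driven tumors, 1.77 to 2.69% in untreated AT3 tumors and 3.82 to 5.93% in NAM-treated AT3 tumors, so that the AT3 groups did not overlap. No trend with transcript length was removed from these shares, and *Sirt1* has the longest transcript of the sirtuins (4430 bases). The nuclear sirtuins together took 33.2 to 40.6% in untreated M/D-driven and 36.7 to 37.8% in untreated AT3 tumors, with overlap.

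**Figure D2:**
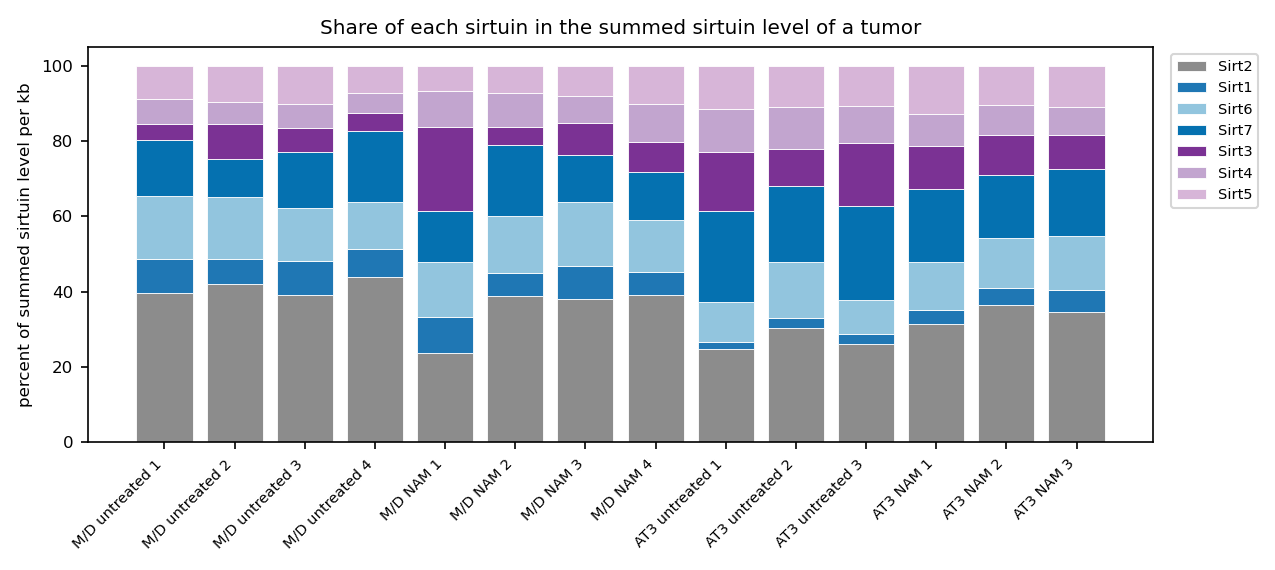
Percent of the summed sirtuin level per kilobase taken by each sirtuin, with 1 bar per tumor, stacked to the whole family (*Sirt2* in grey, nuclear sirtuins in blue, mitochondrial sirtuins in purple). The purple part spans 32.1 to 38.6% in untreated AT3 tumors and 17.2 to 24.8% in untreated M/D-driven tumors.

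The effect of NAM was then compared within each model with limma on log2(normalized count + 1), where a gene was called if its unadjusted p did not exceed 0.05 and the group means differed by 1.5-fold or more. In M/D-driven tumors 1 of 10 members was called, *Sirt4*, which was higher with NAM, beside 6.22% of the 21700 genes tested. At an adjusted p of 0.05 it was 0 of 10, with a smallest adjusted p of 0.734. The median log2 fold change of the members was 0.18, against 0.01 over all genes tested.

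*Sirt4*, a mitochondrial enzyme that restrains glutamate dehydrogenase, had normalized counts of 303, 277, 288 and 247 in untreated and of 617, 487, 315 and 526 in NAM-treated M/D-driven tumors. All 4 NAM-treated tumors were above all 4 untreated ones, and NAM-treated tumor 3 was only just so. Such separation of the groups was found for 1 of the 10 members and for 4.43% of all genes tested. The log2 fold change was 0.76 (SE 0.27), a 1.70-fold difference (p = 0.0212 by limma; exact two-sided permutation p = 0.0286, the smallest that 4 against 4 tumors allow). The adjusted p over all genes tested was 0.734. Within experiment 1 the log2 fold change was 0.63 (adjusted p = 0.812), still past the thresholds, and the call was lost without untreated tumor 4 (0.71, adjusted p = 0.992). Of the cell type marker lists, 2 of 6 NK cell, 1 of 5 adipocyte and 1 of 6 skeletal muscle markers were called higher with NAM in this model. In the 10 other lists it was 0, beside 6.22% of all genes tested, called in either direction. The part of these cells in the level of *Sirt4* was not tested.

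The other mitochondrial sirtuins did not pass the thresholds. *Sirt3*, the main mitochondrial deacetylase, was at 339.7, 762, 504 and 371 in untreated and at 2515, 459, 665 and 745 in NAM-treated M/D-driven tumors. Only NAM-treated tumor 1 was above the untreated range. The log2 fold change of 0.89 (SE 0.53, adjusted p = 0.754) became 0.38 (adjusted p = 0.863) within experiment 1. *Sirt5*, a desuccinylase, was at 449 to 617 and 487 to 731 (log2 fold change 0.06, 95% interval −0.46 to 0.58, and 0.070 within experiment 1).

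Among the nuclear and cytoplasmic sirtuins, *Sirt1*, the deacetylase of p53 and FOXO factors, was at 1005, 759, 992 and 839 in untreated and at 1506, 799, 967 and 821 in NAM-treated tumors of this model. The groups overlapped except for NAM-treated tumor 1, and the log2 fold change was 0.15 (95% interval −0.44 to 0.73), or −0.06 within experiment 1. *Sirt2*, a tubulin deacetylase, was at 2071 to 2365 without and 1762 to 2461 with NAM (−0.04, −0.45 to 0.37). *Sirt6*, a histone deacetylase of telomeric chromatin, was at 604 to 808 and 758 to 975 (0.25, −0.21 to 0.71), and *Sirt7*, which acts at ribosomal RNA genes, at 836 to 1585 and 1009 to 1851 (0.22, −0.41 to 0.85). Within experiment 1 the log2 fold changes were 0.052 for *Sirt2*, 0.17 for *Sirt6* and 0.17 for *Sirt7*. The intervals over all 8 tumors leave room for a change of 1.5-fold in *Sirt1*, *Sirt6* and *Sirt7*, but not in *Sirt2*.

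Of the glycohydrolases, *Cd38* was at 497, 444, 508 and 908 in untreated and at 3118, 602, 595 and 541 in NAM-treated M/D-driven tumors, a log2 fold change of 0.64 (SE 0.58, adjusted p = 0.813) that became 0.03 within experiment 1. Only NAM-treated tumor 1 was above the untreated range. *Bst1* was at 585, 701, 699 and 1097 in untreated and at 7818, 1109, 211 and 245 in NAM-treated tumors. NAM-treated tumors 3 and 4 lay below, and tumors 1 and 2 above, all untreated tumors. The log2 fold change of 0.13 (SE 1.05, adjusted p = 0.986) was −0.96 within experiment 1. *Sarm1* was at 54.0, 63.0, 60.1 and 45.1 in untreated and at 28.9, 26.8, 87.4 and 155 in NAM-treated tumors, hence 2 below and 2 above the untreated range (log2 fold change 0.05, SE 0.61, and 0.37 within experiment 1).

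In the tumor that carried the B-lineage markers, *Cd38* was 5.77 times, *Bst1* 11.2 times and *Sirt3* 4.99 times the median of the 7 other M/D-driven tumors. The members at their highest of 8 in this tumor were *Sirt1*, *Sirt3*, *Sirt4*, *Sirt6*, *Cd38* and *Bst1*, whereas *Sirt2* was at its lowest. The share of all genes at their highest in this tumor was not computed, and the ranks are therefore not read as a result about the members. The summed NK cell (2356), endothelial (26788) and adipocyte (104410) markers were also at their highest of 8 in this tumor. The summed macrophage markers (100599) were at their lowest. The part of B-lineage or any of these other cells in the levels of the members was not tested. *Sarm1* was at 28.9 in the same tumor, the next to lowest of 8.

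**Figure D3:**
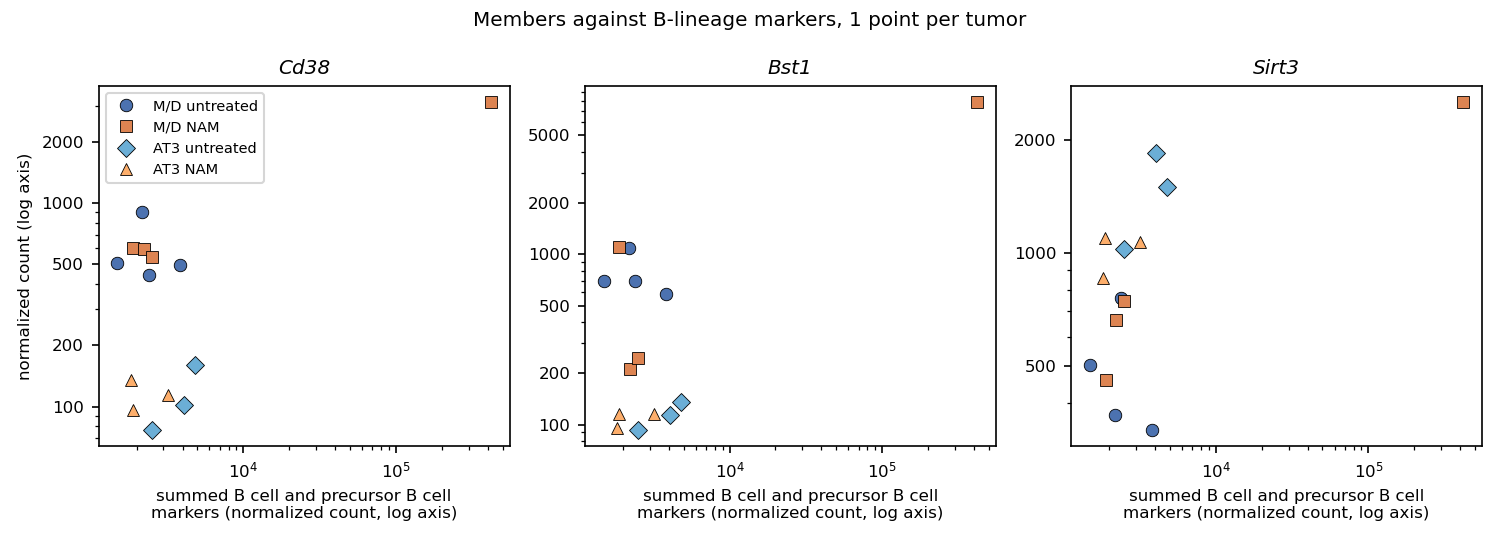
Normalized counts of *Cd38*, *Bst1* and *Sirt3* (log axes) against the summed B cell and precursor B cell markers, with 1 point per tumor. NAM-treated M/D-driven tumor 1 lies alone at the upper right, and the 13 other tumors show no such markers at comparable levels.

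The patterns of the glycohydrolases were compared with those of 15414 genes that carried a symbol and were tested in both models. The measure was Pearson's correlation of log2(normalized count + 1) centered on the mean of each model over the 14 tumors. These values are descriptions, as the tumors of a model share a scaling and 1 tumor carries much of the variance. The genes most like *Cd38* were *Cfap45* (0.95), *Mpp1* (0.95) and *Ttll11* (0.95), for which the correlation over 13 tumors without NAM-treated tumor 1 was 0.74, 0.73 and 0.73. Those most like *Bst1* were *Otulin* (0.96), *Blnk* (0.96), an adaptor of the B cell receptor, and *Desi1* (0.94), at 0.91, 0.86 and 0.84 without that tumor. The correlation between *Cd38* and *Bst1* was 0.81 with and 0.27 without this tumor. Those most like *Sarm1* were *Myh11* (0.91), the myosin of smooth muscle, *Dnal1* (0.88) and *C130074G19Rik* (0.87), at 0.91, 0.86 and 0.89 without it.

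In AT3 tumors 1 of 10 members was called, *Sirt1*, which was higher with NAM, beside 23.1% of the 19281 genes tested. At an adjusted p of 0.05 it was 0 of 10, with a smallest adjusted p of 0.166. The median log2 fold change of the members was 0.02, against −0.05 over all genes tested. The log2 fold changes of all genes rose with transcript length in this model (Spearman's rho across genes, 0.59, against −0.04 in M/D-driven tumors), and members are therefore also given with each tumor's trend with length and GC content removed.

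*Sirt1* was at 287, 382 and 323 in untreated and at 493, 639.7 and 791 in NAM-treated AT3 tumors. The 3 NAM-treated tumors were above the 3 untreated ones, and the groups of 3 of 10 members and of 22.6% of all genes tested did not overlap. The log2 fold change was 0.94 (SE 0.26), a 1.91-fold difference (p = 0.00595 by limma; exact two-sided permutation p = 0.1, the smallest that 3 against 3 tumors allow). The adjusted p over all genes tested was 0.166. The call was kept in each of the 17 alternative fits, with log2 fold changes of 0.69 to 1.11 and adjusted p values of 0.0157 to 0.550, of which the DESeq2 Wald test gave the lowest. *Sirt1* has the next to longest transcript of the members (4430 bases), and its log2 fold change was 0.69 (adjusted p = 0.152) with the trend removed. As a ratio to the *Sirt2* reads of the same tumor, it was 0.67 higher on the log2 scale with NAM, again without overlap. The trend with length was not removed from this ratio, and the *Sirt2* transcript is shorter (2117 bases). With the trend removed, the log2 fold change of *Sirt2* rose from 0.26 to 0.44, whereas that of *Sirt1* fell. Markers that moved with NAM in these tumors included 4 of 5 endothelial, 3 of 8 macrophage and 2 of 7 fibroblast markers, all called higher, and 2 of 10 epithelial markers in each direction. The median log2 fold change of the macrophage markers was nevertheless −0.16. With the length and GC trend removed it was 0.32, against 0.0073 over all genes, so that its sign depended on this trend. In other lists, 2 of 6 B cell and 1 of 5 adipocyte markers were called lower, and 1 of 5 precursor B cell markers in each direction. Called higher were 1 of 5 plasma cell and 1 of 6 nerve and glia markers. These counts stand beside 23.1% of all genes tested, called in either direction. The summed endothelial markers were at 2514 to 3756 without and at 4067 to 6952 with NAM, and their part in the level of *Sirt1* was not tested.

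*Sirt4* and *Sirt7* were lower in every NAM-treated than in every untreated AT3 tumor but did not pass the thresholds. *Sirt4* was at 743, 639 and 489 without and at 447, 467 and 407 with NAM, a log2 fold change of −0.48 (SE 0.24, adjusted p = 0.244). It was −0.65 and past the thresholds without untreated tumor 3, and −0.19 with the trend removed, *Sirt4* having the shortest transcript of the members (1794 bases). *Sirt7* was at 2906, 2092 and 2299 without and at 1853, 1739 and 1763 with NAM, a log2 fold change of −0.43 (SE 0.21, adjusted p = 0.232), which was past the thresholds with the trend removed (−0.62, adjusted p = 0.154). *Sirt3* was at 1842, 1025 and 1499 without and at 1069, 1095 and 857 with NAM (−0.50, SE 0.26, adjusted p = 0.263). The groups overlapped at untreated tumor 2, without which the log2 fold change was −0.73 and past the thresholds. Upper quartile scaling, which moved the median of all genes by −0.21, called *Sirt3* (−0.71), *Sirt4* (−0.69) and *Sirt7* (−0.64) as lower, beside *Sirt1*.

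The remaining sirtuins overlapped between AT3 groups. *Sirt2* was at 1544 to 2047 without and 1931 to 2465 with NAM (0.26, 95% interval −0.22 to 0.75), *Sirt5* at 732 to 1017 and 793 to 904 (−0.05, −0.55 to 0.45) and *Sirt6* at 482 to 915 and 706 to 818 (0.18, −0.44 to 0.80). The glycohydrolases were low in both groups. *Cd38* was at 77.2 to 159.5 without and 95.96 to 135 with NAM (0.08, −0.72 to 0.88), *Bst1* at 93.4 to 136 and 95.001 to 115 (−0.07, −0.75 to 0.61), and *Sarm1* at 8.14 to 20.3 and 18.8 to 24.3, on 10 to 27 reads per tumor (0.50, −0.75 to 1.75).

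**Figure D4:**
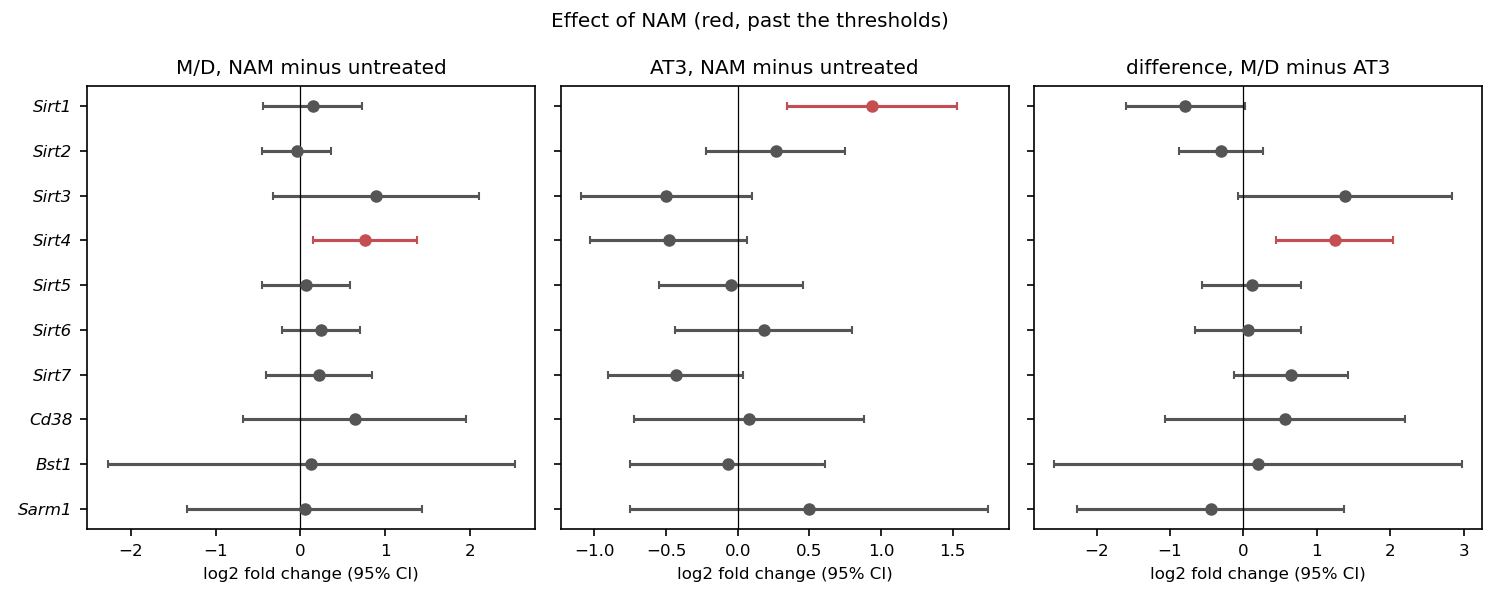
Log2 fold change of each member with NAM in M/D-driven tumors, in AT3 tumors and its difference between models, with 95% intervals from limma. Members past the thresholds, in red, are *Sirt4* in M/D-driven tumors (0.76), *Sirt1* in AT3 tumors (0.94) and *Sirt4* for the difference (1.25).

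The difference of the NAM effect between models was tested as an interaction over the 14 tumors. *Sirt4* was called, as 1 of 10 members beside 14.9% of the 22710 genes tested, since its log2 fold change was 1.25 greater in M/D-driven than in AT3 tumors (SE 0.37, 95% interval 0.45 to 2.04, adjusted p = 0.202 by limma). The call was kept in all 24 alternatives, at 1.11 to 1.59, including that without NAM-treated M/D-driven tumor 1 (1.12), and it was 1.18 with the length and GC trend removed. For *Sirt1* the difference was −0.79 (SE 0.38, 95% interval −1.60 to 0.02, adjusted p = 0.344), so that an effect of NAM that differed between models was not shown by this test. It was past the thresholds with TMM factors (−0.92) and without NAM-treated M/D-driven tumor 1 (−0.99, adjusted p = 0.184), untreated M/D-driven tumor 2 (−0.87), untreated AT3 tumor 2 (−0.90) or NAM-treated AT3 tumor 1 (−0.97). *Sirt3* differed by 1.39 (SE 0.68, −0.07 to 2.84) and was past the thresholds without untreated M/D-driven tumor 2 (1.62), NAM-treated M/D-driven tumor 2 (1.69) or untreated AT3 tumor 2 (1.62), but fell short of them without NAM-treated M/D-driven tumor 1 (0.88). It was also past them with upper quartile factors (1.73), edgeR (1.65) and DESeq2 (1.73). *Sirt7* differed by 0.65 (SE 0.36, −0.12 to 1.43), and was past the thresholds without untreated M/D-driven tumor 4 (0.79) or NAM-treated M/D-driven tumor 3 (0.80), with upper quartile factors (0.99) and with the length and GC trend removed (0.96).

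Untreated tumors of the 2 models were compared after TMM scaling over the 14 tumors, as the models had been normalized apart. Here the adjusted p had to stay within 0.05, with a difference of 1.5-fold or more. Of 10 members 8 were called, beside 50.4% of the 21650 genes tested, with 4 higher in M/D-driven and 4 higher in AT3 tumors. The same 8 did not overlap between models, as was the case for 53.9% of the genes tested. Model, experiment, hormone and carcinogen exposure, and tumor site cannot be told apart in this comparison.

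The 3 glycohydrolases were all higher in M/D-driven tumors. On the common scale *Cd38* was at 567 ± 197 (SD, n = 4) in M/D-driven and at 129 ± 49.9 (SD, n = 3) in AT3 tumors, a log2 fold change of 2.14 (SE 0.36, adjusted p = 0.00166 by limma). *Bst1* was at 743 ± 205 and 131 ± 25.2, a log2 fold change of 2.48 (SE 0.29, adjusted p = 0.000336). *Sarm1* was at 53.8 ± 8.34 and 18.4 ± 7.82 (1.58, SE 0.49, adjusted p = 0.0253), and its call was lost with upper quartile scaling (0.89), with the length and GC trend removed (0.28, adjusted p = 0.636), without M/D-driven tumor 1 (1.59) or 3 (1.54) and without AT3 tumor 3 (1.18, adjusted p = 0.0831). Marker levels moved with these differences. On the common scale the summed macrophage markers were at 110624 to 157139 in untreated M/D-driven and at 66669 to 102777 in untreated AT3 tumors, those of T cells at 1841 to 5174 and 317 to 2048, those of endothelium at 6807 to 16000.4 and 2907 to 4298, and those of nerve and glia at 7559 to 13359 and 449.8 to 509.7. Markers called higher in M/D-driven tumors were 6 of 8 for macrophages (1 was lower), 4 of 6 for T cells, 5 of 5 for endothelium and 2 of 6 for nerve and glia, and no marker of these 4 lists was at 0 in every tumor of a group. In the other lists it was 5 of 5 for adipocytes, 7 of 10 for epithelium, 4 of 7 for fibroblasts, 3 of 7 for neutrophils, 2 of 6 for plasma cells (1 was lower), 1 of 7 for B cells, 1 of 6 for precursor B cells (1 was lower), and 0 of 6 each for NK cells and skeletal muscle. These counts stand beside 50.4% of all genes tested, called in either direction, and the part of these cells in the levels of *Cd38*, *Bst1* and *Sarm1* was not tested.

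The sirtuins split between models. *Sirt1* was higher in M/D-driven tumors (868.5 ± 115 against 377 ± 58.4, log2 fold change 1.20, SE 0.22, adjusted p = 0.00249 by limma). The 3 mitochondrial sirtuins were all higher in AT3 tumors. *Sirt3* was at 479 ± 192 against 1654 ± 447 (−1.83, SE 0.33, adjusted p = 0.00256), *Sirt4* at 269.5 ± 25.3 against 709 ± 134 (−1.38, SE 0.24, adjusted p = 0.00188) and *Sirt5* at 531 ± 79.2 against 985 ± 145 (−0.89, SE 0.22, adjusted p = 0.00972). *Sirt7* was higher in AT3 tumors as well (−1.26, SE 0.24, adjusted p = 0.00290). *Sirt2* (0.04, 95% interval −0.36 to 0.43) and *Sirt6* (−0.19, −0.79 to 0.41) were not called.

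These values depended on the scale set between models. Upper quartile scaling moved the median of all genes by −0.78 and with it *Sirt1* to 0.49 (adjusted p = 0.0802), *Sirt2* to −0.68 (adjusted p = 0.00975) and *Sirt6* to −0.91 (adjusted p = 0.0158), both of which were then called, whereas the direction of *Sirt1*, *Sirt3*, *Sirt4*, *Sirt5*, *Sirt7*, *Cd38*, *Bst1* and *Sarm1* was kept in each of the 16 alternative fits. Removal of the length and GC trend brought *Sirt1* to 0.42 (adjusted p = 0.109). Ratios of reads within a tumor involve no scale. The log2 ratio of *Sirt1* to *Sirt3* reads was −0.0041 to 1.57 in untreated M/D-driven tumors and −2.68 to −1.43 in untreated AT3 tumors, and that of *Cd38* to *Sirt2* was −2.36 to −1.38 and −4.73 to −3.27. Neither ratio overlapped between models (exact two-sided permutation test, p = 0.0571 for each, the smallest that 4 against 3 tumors allow). Both ratios were chosen after the data were seen. *Sirt1*, *Sirt3* and *Cd38* by themselves already did not overlap between models, as was the case for 53.9% of all genes tested. The ratios are therefore descriptions and no separate test.

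**Figure D5:**
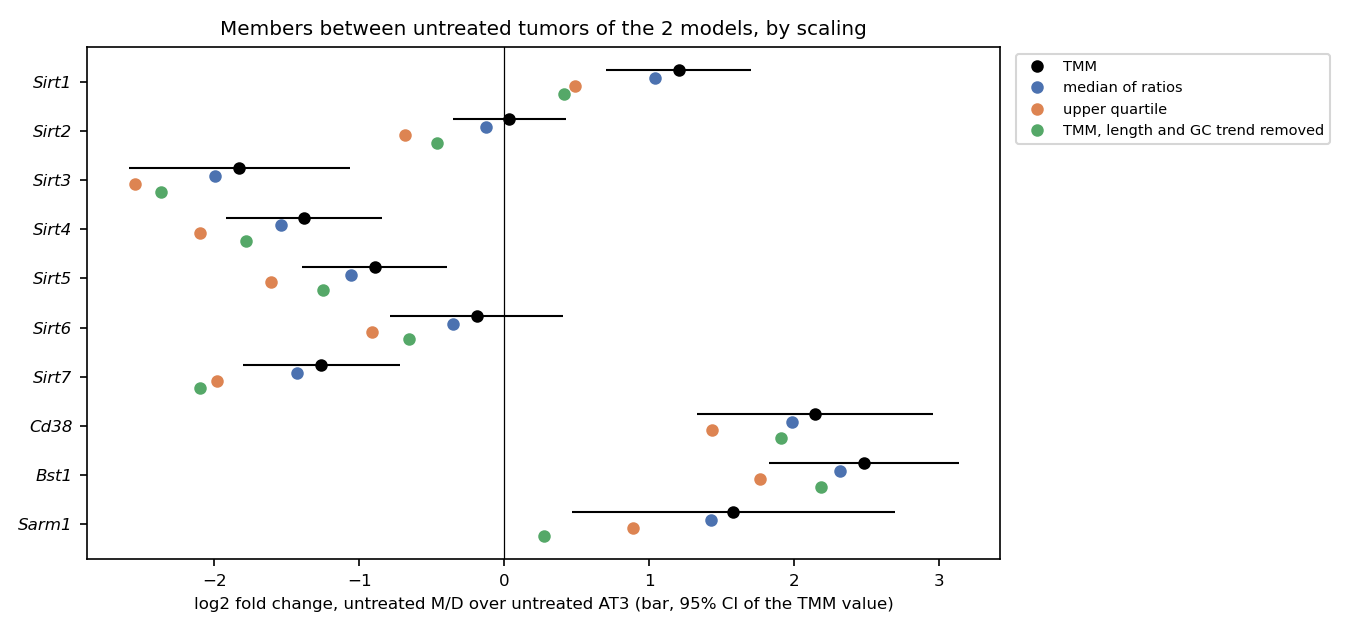
Log2 fold change of each member between untreated M/D-driven and untreated AT3 tumors under 3 scalings and with the length and GC trend removed, where positive values are higher in M/D-driven tumors and bars are 95% intervals of the TMM value. *Sirt3*, *Sirt4*, *Sirt5* and *Sirt7* stay below 0 and *Cd38* and *Bst1* above 1 under all 4, whereas *Sirt2* changes sign.

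The genes that work with these enzymes were read from 4 lists. In M/D-driven tumors 0 were called higher and 3 lower, namely 1 of 23 genes of NAD synthesis and clearance, 0 of 15 PARP family genes, 1 of 21 sirtuin partners and substrates, and 1 of 13 genes of NADase signaling, beside 6.22% of all genes tested. *Nt5e*, the surface nucleotidase CD73 that acts downstream of CD38, was at 4349 ± 1426 without and 1692 ± 2301 with NAM (log2 fold change −2.12, SE 0.74). *Acss2*, an acetyl-CoA synthetase whose family is deacetylated by sirtuins, was at 2401 ± 894 and 978 ± 511 (−1.35, SE 0.40). *Map2k4*, a kinase of the JNK pathway, was the last (−0.69, SE 0.29). All 3 had an adjusted p of 0.734. Within experiment 1 they were at −1.85, −1.11 and −0.56 (adjusted p = 0.812 for each), and only *Acss2* was still called. The calls of *Nt5e* and *Map2k4* were also lost without NAM-treated tumor 3 (−1.86 and −0.72) or 4 (−1.85 and −0.64), and that of *Map2k4* without untreated tumor 3 (−0.58) or 4 (−0.54). The medians of the lists (−0.02 to 0.23) are set against 0.01 for all genes, or 0.03 to 0.40 against 0.099 with the length and GC trend removed.

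In AT3 tumors 5 of 19 sirtuin partners and substrates were higher and 1 was lower with NAM, beside 23.1% of all genes tested in either direction. Their median log2 fold change was 0.41 against −0.05 for all genes tested, or 0.25 against 0.0073 with the length and GC trend removed. *Foxo3* (1.74, SE 0.42) and *Foxo1* (1.24, SE 0.39), transcription factors deacetylated by SIRT1, and *Hif1a* (0.85, SE 0.28) were higher. *Rps19bp1*, which encodes the SIRT1 regulator AROS, was lower (−0.90, SE 0.31). With the trend removed, the values of these 4 genes were 0.95, 0.43, 0.62 and −0.29, and the calls of *Foxo1* and *Rps19bp1* were lost.

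Of 15 PARP family genes, the other large class of NAD consumers, 4 were higher and 1 was lower with NAM in AT3 tumors, beside the same 23.1%. The tankyrases *Tnks* (2.27, SE 0.58) and *Tnks2* (0.88, SE 0.30) and the vault protein *Parp4* (1.14, SE 0.38) were higher and *Parp6* was lower (−0.61, SE 0.21). Trend removal gave 1.496, 0.32, 0.49 and −0.64, so that *Tnks2* and *Parp4* were no longer called. Of 21 genes of NAD synthesis and clearance 0 were higher and 2 were lower, *Nmnat1*, the nuclear enzyme that makes NAD (−0.69, SE 0.26), and *Aox1*, which oxidizes NAM-derived compounds (−0.70, SE 0.29). Of 10 genes of NADase signaling, *Tpcn1*, an endolysosomal calcium channel (0.98, SE 0.33), and *Map2k7* (0.77, SE 0.29) were higher and *Adora2a*, an adenosine receptor (−0.71, SE 0.29), was lower. The calls of *Tpcn1* (0.43) and *Map2k7* (0.50) were lost with the trend removed. Adjusted p values of these AT3 genes were 0.166 to 0.192 by limma. With 1 tumor left out, the calls of *Tnks*, *Foxo3* and *Foxo1* were kept in every case, and that of each other gene named was lost without at least 1 of the tumors.

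Between untreated tumors of the 2 models, 11 of 23 genes of NAD synthesis and clearance were higher and 2 were lower in M/D-driven tumors, as were 5 and 2 of 15 PARP family genes, 10 and 4 of 21 sirtuin partners and substrates, and 6 and 0 of 11 genes of NADase signaling, beside 50.4% of all genes tested. The median log2 differences of these lists were 1.20, 0.51, 0.55 and 0.95, against 0.22 for all genes tested. With the length and GC trend removed they were 0.56, −0.48, −0.13 and −0.048, against −0.34, so that the sign changed for all genes and for each list except NAD synthesis and clearance.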

How the data were processed

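Bulk RNA of 14 tumors was analyzed. The authors aligned 75-base read pairs to mm10 with STAR 2.4.0, counted reads over constitutive regions of Mouse FAST DB genes, divided these counts by DESeq2 size factors for each model apart, and deposited the resulting normalized signal. Whole reads were recovered from all values (100% whole within 0.01). Genes whose mean reached 10 in either group were compared on log2(value + 1) with limma 3.58.1 under R 4.3.3 (trended variance, Benjamini-Hochberg adjustment over all genes tested), a scale that understates the change of low genes. Models were compared after TMM scaling of the recovered reads (edgeR 4.0.16). Trends with length and GC of the longest GENCODE transcript, known for 83.3 to 85.2% of tested genes, were removed by splines of 4 degrees of freedom. The alternatives were other scalings, pseudocounts of 0.5 and 5, filters, edgeR, DESeq2 1.42.0, a replicate block and each tumor left out. All members are named, as are up to 3 called genes per list, direction and NAM comparison with the smallest p, and the 3 genes most like each glycohydrolase. Members and lists were chosen with earlier results of these data known. No pair of libraries was identical.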

Additional observations from a re-analysis of the deposited data

Results flagged for a closer look

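Dixon's ratio of the gap to the whole range was taken on normalized counts and not on log2 values. By this ratio, a single tumor stood apart from the 3 others in 4 of the 20 combinations of member and 4-tumor group examined. In NAM-treated M/D-driven tumors this was tumor 1 for *Sirt3* (2515, ratio 0.861), *Cd38* (3118, ratio 0.976) and *Bst1* (7818, ratio 0.882), the same tumor that held the B cell and precursor B cell markers. In untreated M/D-driven tumors it was tumor 4 for *Cd38* (908, ratio 0.863). A chance rate of about 1 in 20 applies to normally distributed values, which these counts were not shown to be. The cases that share tumor 1 are also not independent. An excess of such cases over chance was therefore not shown.

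The effect of NAM on *Sirt4* differed between the models by 1.25 on the log2 scale in the interaction test (adjusted p = 0.202 by limma). *Sirt4* was the only 1 of 10 members past the thresholds, beside 14.9% of the 22710 genes tested. The log2 fold change of *Sirt4* was 0.76 in the M/D model, past the thresholds, and −0.48 in AT3 tumors, where it was not.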

How the results depend on the processing

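Over 786 values of members under alternative settings, 707 kept their direction and side of the thresholds. The count of all genes past the thresholds for NAM in M/D-driven tumors (1350) was 2180 with no filter, 859 with a minimum mean of 50, 2092 with DESeq2, 2132 in a fit of all 14 tumors, and 784 (without untreated tumor 4) to 2712 (without NAM-treated tumor 2) with 1 tumor left out. In AT3 tumors (4458) it was 2594 with the length and GC trend removed and 1618 (without NAM-treated tumor 3) to 6765 (without untreated tumor 2) with 1 tumor left out, and for the interaction (3377) it was 2027 and 1838 to 4574. Members called in AT3 tumors (1) were 4 with upper quartile factors, 2 with the trend removed and 1 to 2 with 1 tumor left out, in M/D-driven tumors (1) 0 to 1, and for the interaction (1) 3 with upper quartile factors, 2 each with TMM factors, edgeR, DESeq2 and the trend removed, and 1 to 3 with 1 tumor left out. Upper quartile factors moved the higher and lower calls from 658 and 692 to 915 and 561 in M/D-driven tumors, from 2358 and 2100 to 1459 and 3492 in AT3 tumors, from 1582 and 1795 to 3230 and 942 for the interaction (1216 and 2294 with TMM factors), and from 6583 and 4334 to 4056 and 8063 between models (3527 and 6115 with the trend removed).

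The sign of the following values changed, and the cause was not tested. With NAM in M/D-driven tumors, *Sirt2* was 0.069 with upper quartile factors and 0.13 with the trend removed. In AT3 tumors, trend removal gave *Sirt5* 0.15, *Bst1* 0.11 and *Sarm1* −0.10, and upper quartile factors gave *Sirt6* −0.028 and *Cd38* −0.13. For the interaction, *Sirt2* was 0.037 with upper quartile factors, *Sirt5* −0.017 and *Sirt6* −0.062 with TMM factors, and *Sarm1* 0.0077 with DESeq2 and 0.26 with the trend removed. Between models, *Sirt2* was −0.68 with upper quartile factors, −0.069 with edgeR, −0.15 with DESeq2, −0.46 with the trend removed and −0.13 with median-of-ratios factors. With 1 tumor left out, values for NAM in M/D-driven tumors ran from −0.056 to 0.25 for *Sirt1*, −0.11 to 0.052 for *Sirt2*, −0.056 to 0.14 for *Sirt5*, −0.96 to 0.78 for *Bst1* and −0.42 to 0.41 for *Sarm1*. In AT3 tumors they ran from −0.16 to 0.076 for *Sirt5*, −0.073 to 0.39 for *Sirt6*, −0.16 to 0.36 for *Cd38* and −0.21 to 0.062 for *Bst1*. For the interaction they ran from −0.012 to 0.23 for *Sirt5*, −0.14 to 0.32 for *Sirt6*, −0.045 to 0.80 for *Cd38* and −0.89 to 0.85 for *Bst1*, and between models from −0.072 to 0.12 for *Sirt2* and −0.43 to 0.020 for *Sirt6*.

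The replicate numbers did not pair the tumors, as the deviations of same-numbered tumors correlated at −0.44 to 0.11 in M/D-driven and −0.16 to 0.26 in AT3 tumors. Under a replicate block, 0 members were called in M/D-driven tumors (*Sirt4*, 0.76, adjusted p = 0.862) and 1001 genes, against 5082 genes in AT3 tumors, and between models the calls of *Sarm1* (1.68, adjusted p = 0.0842) and *Sirt5* (−0.79, adjusted p = 0.0679) were lost. The count of *Sarm1* reads, 10 to 27 per AT3 tumor, limits its precision. The ratios of members to *Sirt2* and to each other were chosen after the data were seen.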
